A study of Homo sapiens with 3 samples.

Results

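Pre-mRNA splicing is carried out by the spliceosome, whose U2 particle finds the branch site with the help of the SF3A and SF3B complexes and the U2AF dimer. Serine/arginine-rich (SR) proteins, encoded by the SRSF genes, bind exons and mostly favour their use, whereas heterogeneous nuclear ribonucleoproteins (hnRNPs) coat nascent RNA and often oppose it. PTBP, MBNL, RBFOX and CELF proteins are regulators that shift splicing between tissues. Many of these genes control their own level by splicing in a "poison" exon or a late intron that makes the transcript a substrate of nonsense-mediated decay, and such transcripts are listed as non-coding in RefSeq.

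The SR, hnRNP and core splicing factors are described here across 1 comparison in SW480, a human cell line established from a colon adenocarcinoma. Cells were transduced with 1 short hairpin RNA (shRNA) against the RNA-binding protein RBMS1 (clone TRCN0000074936) or with control shRNA, and total RNA was taken 48 hours later, which gave 1 shRBMS1 library and 2 shControl libraries. Whether both shControl libraries carry the same hairpin is not stated. With a single hairpin and a single knockdown library there is no replicate error, so nothing below is tested, and a difference due to the hairpin or to the library cannot be told apart from one due to RBMS1. The members are all transcripts whose RefSeq gene symbol starts with SRSF, HNRNP, SF3A, SF3B, U2AF, PTBP, MBNL, RBFOX or CELF: 115 of 19818 mapped transcripts, from 51 of 12582 genes. They comprise 105 coding (NM) and 10 non-coding (NR) transcripts. Of 65 protein-coding genes with these prefixes in RefSeq, 50 had a value, and the other 15, among them U2AF1, MBNL3, RBFOX1 and CELF2, were not analysed here. The remaining member, HNRNPUL2-BSCL2, is a non-coding readthrough of HNRNPUL2 into its neighbour.

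Each value is a log2 fold change per transcript, shRBMS1 over shControl, as the authors' deposited table gives it, so −1 stands for 50% of control. For a gene, the median over its listed transcripts was computed here. Levels per library and sequencing depth were not analysed here, so a very large fold change may come from a level close to 0 on either side. Fewer cells that hold a transcript cannot be told apart from less of it per cell. Read assignment among transcripts that share exons is not described in the sources used here. The direction was set so that RBMS1 lies lower, which makes its sign an assumption: from the authors' deposited table, its transcripts come to 39.1% and 32.5% of control. Of its relatives, RBMS2 was at −0.57, and RBMS3 was not analysed here. Of the epithelial markers 8 of 10 had a value, including EPCAM, KRT8 and CDH1, with CDX1 and LGR5 not analysed here. Their median was −0.40 and they ran from −2.33 to 0.05. Of 5 leukocyte and 6 fibroblast markers, CD68 alone had a value, and the part of the lower epithelial markers in the values below was not tested.

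The sequences below come from GENCODE 29 transcripts on GRCh38, which link separately to 94 of the 115 member transcripts, in 47 genes. The first pair shows what makes an SR transcript non-coding: the stretch present in the NR transcript and absent from the coding one, from its first base to the first in-frame stop, with the stop in capitals. For SRSF3 it starts an extra stretch of 456 bases and lies at chr6:36599821-36599854 on the plus strand, and for SRSF6 it starts one of 268 bases and lies at chr20:43459153-43459304, also on the plus strand.
SRSF3 NR_036610: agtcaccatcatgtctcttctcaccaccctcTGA
SRSF6 NR_034009: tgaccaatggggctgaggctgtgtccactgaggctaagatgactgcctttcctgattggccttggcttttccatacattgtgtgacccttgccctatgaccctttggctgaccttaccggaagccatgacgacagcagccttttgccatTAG
After these stops the SRSF3 model has 3 further exon junctions and the SRSF6 model has 4. The NR transcripts of SRSF2 and HNRNPDL keep the whole coding sequence, of 663 and 1260 bases, and instead have 3 and 2 junctions after the normal stop. GENCODE lists all 4 as targets of nonsense-mediated decay.

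The second set shows coding stretches by which transcripts of 1 gene differ, chosen because the transcripts' values are compared further on. They are the stretch of HNRNPM at chr19:8465363-8465479 (plus strand), the B1 exon of HNRNPA2B1 at chr7:26197831-26197866 (minus strand), the stretches of HNRNPH3 at chr10:68338643-68338687 (plus), HNRNPU at chr1:244863617-244863673 (minus) and HNRNPDL at chr4:82426463-82426633 (minus), the stretch of PTBP1 at chr19:805492-805569 (plus) and the exon of MBNL1 at chr3:152446704-152446757 (plus). In PTBP1, capitals mark the first 21 bases, which 1 transcript has and another leaves out.
HNRNPM NM_005968: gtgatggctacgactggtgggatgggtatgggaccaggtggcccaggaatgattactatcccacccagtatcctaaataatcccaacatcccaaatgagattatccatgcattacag
HNRNPA2B1 NM_031243: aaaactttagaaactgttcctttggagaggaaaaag
HNRNPH3 NM_012207: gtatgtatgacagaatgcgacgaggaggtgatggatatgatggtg
HNRNPU NM_031844: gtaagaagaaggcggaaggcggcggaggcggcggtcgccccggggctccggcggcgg
HNRNPDL NM_031372: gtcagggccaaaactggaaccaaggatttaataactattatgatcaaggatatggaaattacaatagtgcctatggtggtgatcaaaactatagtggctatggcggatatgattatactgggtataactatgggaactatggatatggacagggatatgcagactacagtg
PTBP1 NM_002819: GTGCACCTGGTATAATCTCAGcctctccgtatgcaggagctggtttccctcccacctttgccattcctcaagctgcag
MBNL1 NM_207293: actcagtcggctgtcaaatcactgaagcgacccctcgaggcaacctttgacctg

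Most splicing factor genes lay close to 0. The median over the 51 genes was 0.05, against 0.01 over all 12582 genes, and 44 of the 51 (86.3%) lay within 0.5 of 0, against 76.9% of all genes. With a log2 threshold of 1, no member gene was higher, where 3.95% of all genes were, and 1 was lower, where 3.96% of all genes were. That gene was PTBP2. By transcript, 6 of 115 were higher by at least 1, beside 8.26% of all transcripts, and 7 were lower by at least 1, beside 7.86%. The median transcript of the members was at 0.04, against 0.02 for all mapped transcripts.

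**Figure D1:**
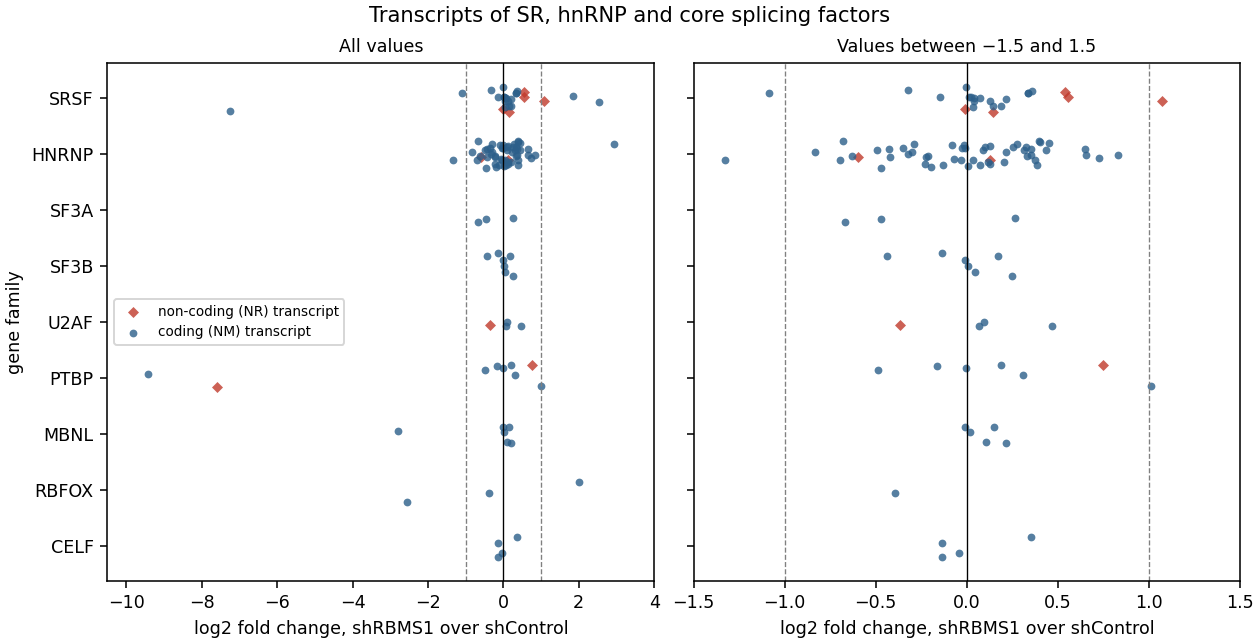
Log2 fold change (shRBMS1 over shControl, x axis) of each of the 115 transcripts by gene family (y axis); red diamonds are non-coding (NR) and blue circles coding (NM) transcripts, the dashed lines mark −1 and 1, and vertical scatter within a family only separates points. The left panel holds all values, with PTBP2 transcripts at −9.42 and −7.58 and an SRSF10 transcript at −7.25 in the authors' deposited table far to the left, and the right panel enlarges the middle, where most points lie.

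Of the 11 SR genes 8 lay above 0, beside 51.5% of all genes. The median of the SR genes was 0.08, and a shift of the group was not tested. The genes below 0 were SRSF5, a serum-responsive SR protein, at −0.14, and SRSF1 and SRSF9, which did not leave 0 by more than 0.01. SRSF3 and SRSF7, small SR proteins that also aid mRNA export, were at 0.10 and 0.27, SRSF2, which binds exonic enhancers, at 0.07, and SRSF6 and SRSF4 at 0.08 and 0.01. SRSF11 was at 0.19. The largest values of SR genes were those of SRSF10, at 0.44, and SRSF8, at 0.60, and both join transcripts that lie apart. SRSF8 is an intronless relative of SRSF2, so its reads could be divided uncertainly.

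The 22 HNRNP genes stood on both sides of 0, with 12 above, 10 below, a median of 0.03 and 18 within 0.5. Highest were HNRNPA1, an exon-silencing factor, at 0.49, and HNRNPC, which binds U-rich tracts, at 0.35, with HNRNPR also at 0.35. All 4 HNRNPC transcripts lay between 0.31 and 0.40 in the authors' deposited table. HNRNPA1L2, a near copy of HNRNPA1, was at 0.06, and reads may be shared between the pair. Lowest were HNRNPH3 at −0.91 (53.2% of control), HNRNPUL2 at −0.83 and HNRNPD, known as AUF1 and a binder of AU-rich elements, at −0.58. In the authors' deposited table the HNRNPD transcripts, 4 in number, spanned −0.70 to −0.43, all on the same side of 0. HNRNPUL2 and its readthrough HNRNPUL2-BSCL2, at −0.60, overlap and can share reads, so they do not count as separate observations. HNRNPM was at −0.27, HNRNPAB at −0.26 and HNRNPA2B1 at −0.18. Nearer to or above 0 were HNRNPL at 0.00, HNRNPK at 0.12, HNRNPU at 0.21 and HNRNPH1 at 0.22.

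The 3 subunits of SF3A, which act as 1 complex in the U2 particle, were not all on the same side of 0. SF3A1 was at −0.67 (62.9% of control) and SF3A2 at −0.47 (72.1%), while SF3A3 was at 0.27 (120.2%). Each has 1 transcript in the authors' deposited table, so no second transcript checks these values. All 6 SF3B genes lay within 0.5 of 0. Of them SF3B4, which contacts RNA near the branch site, was lowest at −0.44, and SF3B1, the largest subunit and one often mutated in cancer, was highest at 0.21. SF3B2, SF3B3 and SF3B6 stood at 0.05, 0.01 and −0.01 and SF3B5 at −0.14. U2AF2, the large U2AF subunit that reads the polypyrimidine tract, was at 0.08, and the authors' deposited table has its transcripts at 0.07 and 0.09.

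Among regulators, PTBP1, a repressor that binds pyrimidine tracts, was at −0.01 and its relative PTBP3 at 0.19. PTBP2, the neuronal relative, had the widest spread of any member. The authors' deposited table puts its coding transcript NM_001300989 at −9.42 and its non-coding ones at −7.58 and 0.75. MBNL1 and MBNL2, the muscleblind proteins, were at 0.05 and 0.08, and CELF1 at −0.09 with its 4 transcripts between −0.14 and 0.35 in the authors' deposited table. RBFOX2, which binds UGCAUG next to exons, was at −0.39, and the authors' deposited table puts its 3 transcripts at 2.02, −0.39 and −2.55.

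The 13 transcripts at or beyond 1 came from 8 genes, and 7 of these genes had another transcript within 0.5 of 0. SRSF10, an SR protein that represses splicing when dephosphorylated, gave 4 of the 13. The authors' deposited table puts its 5 coding transcripts at 2.54, 1.85, 0.34, −1.09 and −7.25, so both ends of the SR range come from 1 gene. HNRNPR had NM_001102399 at 2.93, with its other transcripts between −0.22 and 0.39, per the authors' deposited table. For MBNL1, NM_021038 was at −2.80 and the others at 0.21, 0.10 and −0.01 in the authors' deposited table. NM_207293, the 1 linked MBNL1 transcript with the exon of 54 bases printed above, was the one at 0.10; this exon is known to favour a nuclear location of the protein. The authors' deposited table puts the HNRNPH3 transcripts at −0.49 and −1.33 and the non-coding SRSF8 transcript at 1.07.

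Transcripts of a splicing factor gene were often close to each other. Of 37 member genes with several transcripts, 7 had more than 1 between the highest and the lowest, and 49.3% of all genes with several transcripts did. The median distance was 0.37 in member genes and 0.98 over all genes. The 7 were PTBP2, SRSF10, RBFOX2, HNRNPR, MBNL1, HNRNPF and PTBP1. Transcripts lay on both sides of 0 in 22 of the 37, or 59.5%, against 66.5% of all genes with several. The expression level of these genes, which bears on how exactly transcripts are told apart, was not analysed here, and its part in the narrower distance was not tested.

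Non-coding transcripts were compared with the coding transcripts of the same gene in the 8 member genes that have both. The NR value lay above the coding value in 5 genes and below it in 3, and the median NR minus coding difference was 0.16. Over the 581 other genes with both kinds the median difference was 0.15, with the NR value below in 42.3% of them. Of the members 1 gene was higher in NR by at least 1, beside 23.3% of all 589 genes with both, and 0 were lower by at least 1, beside 13.6%. Without transcripts beyond 5 on the log2 scale, which removes PTBP2 and the SRSF10 coding transcript NM_001191005, the members' median difference was −0.07 over 7 genes, with the NR value above in 3 and below in 4. SRSF10 is the gene whose difference turned, to −0.56, and leaving out PTBP2 alone gave a median of 0.13. Across all members the 10 NR transcripts had a median of 0.13 and the 105 coding ones 0.04, against 0.12 for all mapped NR and 0.01 for all mapped coding transcripts.

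**Figure D2:**
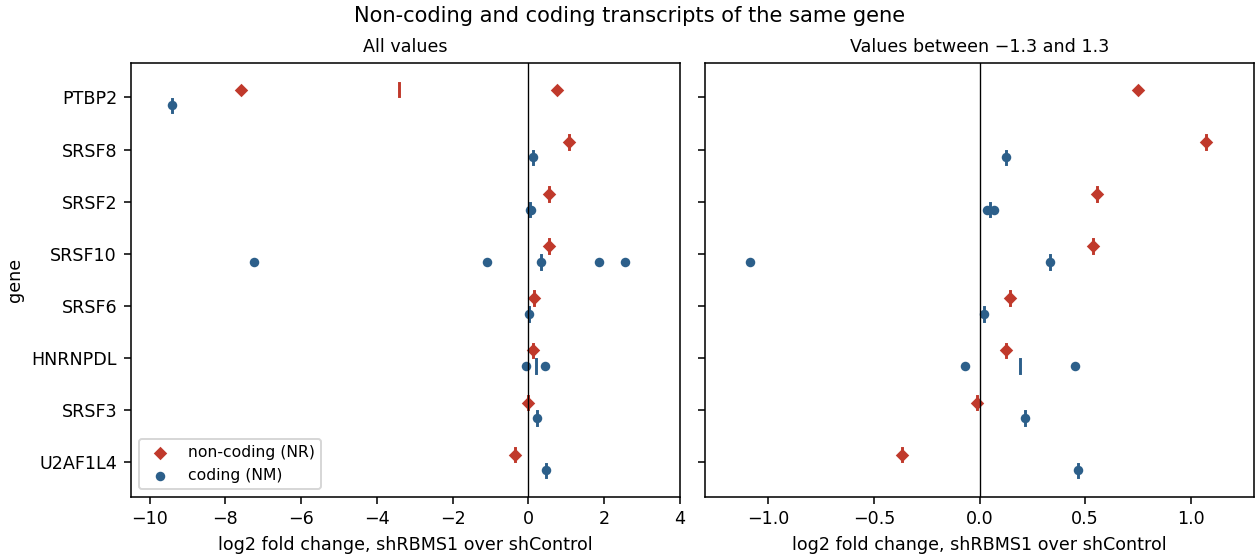
Log2 fold change (shRBMS1 over shControl, x axis) of every non-coding (red diamonds) and coding (blue circles) transcript of the 8 genes that have both (y axis, ordered by NR minus coding), with a short bar at the median of each kind. In the enlarged right panel NR lies right of coding for SRSF8, SRSF2 and SRSF6 and left of it for SRSF3 and U2AF1L4.

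The SR genes with transcripts subject to nonsense-mediated decay did not share a direction. The authors' deposited table puts SRSF2 NR_036608 at 0.55 and the SRSF2 coding transcripts at 0.07 and 0.03, a difference of 0.50 between NR and the coding median. SRSF6 NR_034009, with the stretch whose first in-frame stop is the TAG above, was at 0.15 and its coding transcript at 0.02 in the authors' deposited table. SRSF3 NR_036610, with the stretch whose TGA stop ends at base 34, was at −0.01 and its coding transcript at 0.21 in the authors' deposited table. HNRNPDL, a relative of HNRNPD that regulates itself in the same way, had NR_003249 at 0.12 and coding forms at 0.45 and −0.07, per the authors' deposited table. Over these 4 genes NR minus coding ran from −0.22 to 0.50 with a median of 0.03. Among 203 other genes whose NR transcripts GENCODE lists as targets of nonsense-mediated decay, the median difference was 0.10 with quartiles of −0.58 and 0.88.

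In the other genes with both kinds the NR transcript is of another sort. U2AF1L4, which encodes a relative of the small U2AF subunit, had its intron-retaining NR_110173 at −0.37 and its coding transcript at 0.47 in the authors' deposited table, the most negative NR minus coding difference of the 8 genes, −0.83. SRSF8 had NR_103726 at 1.07 and NM_032102 at 0.12 in the authors' deposited table. GENCODE links both to the same single-exon transcript, and the difference between them was 0.95. SRSF10 had NR_034035 at 0.54, inside the range of its coding transcripts, and the difference from their median was 0.20. For PTBP2 the difference was 6.0, from an NR median of −3.42 and the coding value of −9.42 in the authors' deposited table, and its NR transcripts lie on opposite sides of 0.

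**Figure D3:**
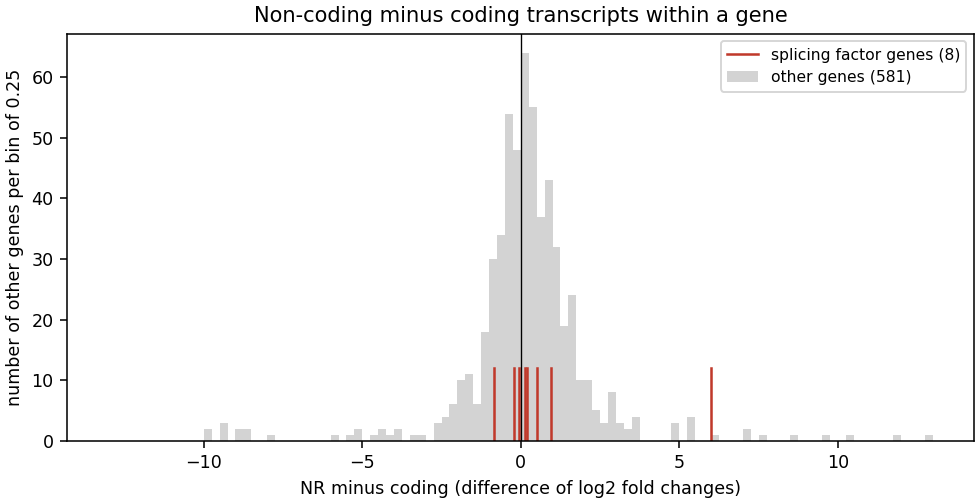
NR minus coding difference of log2 fold changes (x axis); red lines are the 8 splicing factor genes and the grey histogram counts the 581 other genes with both kinds per bin of 0.25 (y axis; the height of the red lines carries no count). Of the red lines 7 lie between −0.83 and 0.95, and PTBP2 lies at 6.0.

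Coding isoforms whose coding lengths differ by 1 coding stretch were compared in 11 member genes. These are genes with a single pair of separately linked coding transcripts and only 1 such stretch, which accounts for their whole difference in coding length. The paired models can also differ outside the coding sequence. The HNRNPA2B1 model has 3664 bases with the stretch and 1711 without it, and the HNRNPA1 model 1842 with it and 4121 without it. A difference in value therefore cannot be assigned to the stretch itself. All 11 stretches, of 9 to 171 bases, keep the reading frame, which follows from choosing them in this way. In these 11 genes the transcript with the stretch was higher in 6 and lower in 5. The median difference was 0.03, and each of the 11 was smaller than 1. Genes with more linked coding forms were left out, and some differences there were larger. With minus without was −1.18 for a stretch of 21 bases in PTBP1 (NM_002819 and NM_031990). It was 7.59 for 3 bases in SRSF10 (NM_054016 and NM_001191005). Among the 11 genes, HNRNPM had the most negative difference, at −0.63 with its stretch of 117 bases and 0.10 without it in the authors' deposited table. HNRNPA2B1 with the B1 exon was at −0.42 and the shorter A2 form at 0.07 in the authors' deposited table. On the other side, HNRNPU with the stretch of 57 bases was at 0.65 and without it at −0.23, and HNRNPH3 with its stretch of 45 bases was at −0.49 and without it at −1.33, in the authors' deposited table.

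The HNRNPDL stretch encodes a glycine- and tyrosine-rich part of the low-complexity tail. HNRNPDL with it was at 0.45 and without it at −0.07, per the authors' deposited table. HNRNPAB, with a related stretch of 141 bases, was at −0.30 with it and −0.22 without it in the authors' deposited table, so the transcript with the stretch was higher for HNRNPDL and lower for HNRNPAB. The compared pairs of HNRNPD, SRSF7, HNRNPR and U2AF2 differed by at most 0.21 between forms. HNRNPD and HNRNPR have further coding transcripts outside these pairs, among them HNRNPR NM_001102399 at 2.93 in the authors' deposited table. PTBP1, which has 3 forms at 1 exon, was at −0.17 with the whole stretch of 78 bases, 1.01 with the last 57 and −0.01 without it in the authors' deposited table. The form that leaves out the 21 capital bases and keeps the rest was the highest, while the form that leaves out all 78 was near 0.

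**Figure D4:**
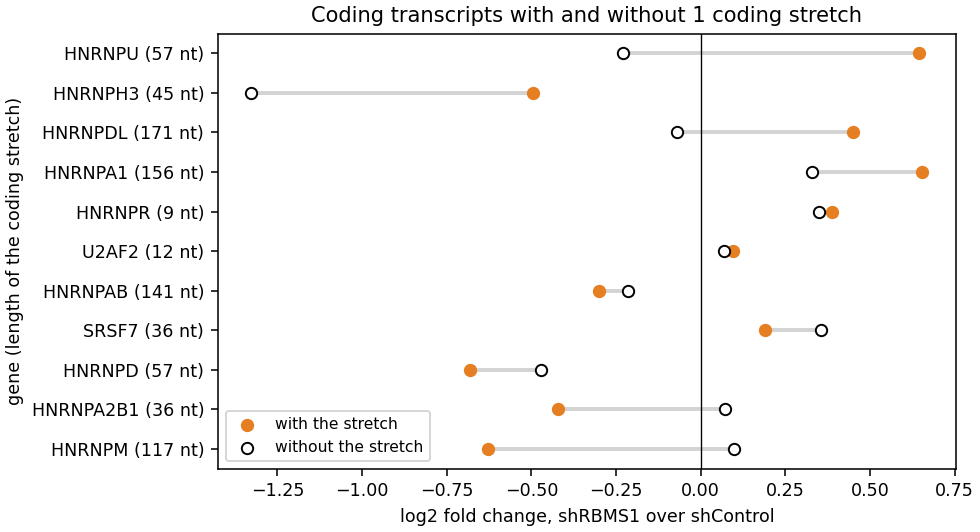
Log2 fold change (shRBMS1 over shControl, x axis) of coding transcripts with (filled orange) and without (open) 1 coding stretch, for 11 genes ordered by the difference, with the stretch's length in nucleotides (y axis). HNRNPU and HNRNPH3 differ most with the filled point on the right, and HNRNPM and HNRNPA2B1 with it on the left.

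Beside the members, 144 of 148 other splicing and decay genes on 8 lists had values. Their median was 0.12, with 91 above 0 (63.2%, beside 51.5% of all genes) and 53 below. At a log2 threshold of 1, 1 of the 144 was higher, beside 3.95% of all genes, and 4 were lower, beside 3.96%. Above 0 were 18 of 23 genes in the U5 and U4/U6 list, with a median of 0.19, and 6 of 10 in the U1 and Sm list, with a median of 0.24. In the U5 and U4/U6 list, USP39 was highest at 0.86 and PRPF8, the core of the catalytic centre, lowest at −0.70. PRPF8 has 1 transcript, whereas the 4 of USP39 ran from −0.55 to 3.43. In the U1 and Sm list, SNRPE was at 0.99 and SNRPD1 at −0.67. Both are midpoints of 2 transcripts that lie apart, at 0.21 and 1.77 for SNRPE and at −1.86 and 0.52 for SNRPD1. In the minor spliceosome list 7 of 7 lay above 0, with SNRNP35 at 0.51 and ZRSR2 at 0.11. The 3 SNRNP35 transcripts ran from −0.10 to 0.58. For catalytic activation and release it was 16 of 20, with DHX16 at 0.34 and XAB2 at −0.62. The U2 and branch site list had 9 of 14 above 0 and held both the highest gene, DDX46 at 1.11, and the lowest, CHERP at −1.36. The DDX46 value joins a non-coding transcript at 1.46 and a coding one at 0.75, and CHERP has 1 transcript.

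SR-related proteins and SR kinases had a median of −0.03, with 11 above 0 and 13 below, and their range ran from SREK1 at 0.68 to SRRM2, a scaffold of nuclear speckles, at −1.20. SREK1 joins transcripts at 0.12 and 1.25, and SRRM2 has 1 transcript. Other hnRNP-like regulators had a median of 0.02, with 17 above 0 and 14 below, and PSPC1, a paraspeckle protein, was highest at 0.51. Factors of nonsense-mediated decay and the exon junction had a median of −0.04, with 7 above 0 and 8 below, and MAGOHB, a core subunit of the exon junction complex, was highest at 0.64.

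**Figure D5:**
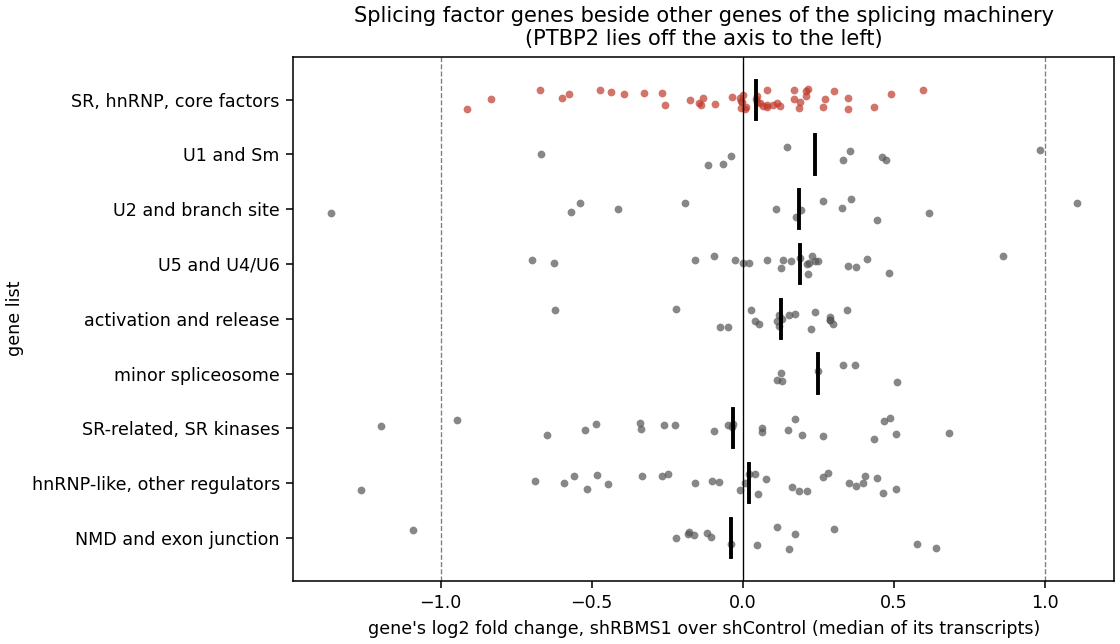
Gene values (median log2 fold change of a gene's transcripts, shRBMS1 over shControl, x axis) for the splicing factor genes (red) and for 8 lists of other splicing genes (grey, y axis); thick bars are medians, dashed lines mark −1 and 1, and PTBP2 at −7.58 lies off the axis. The snRNP, activation and minor spliceosome lists have medians between 0.13 and 0.25, right of the SR, hnRNP and core factors at 0.05.

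RBMS1 is known to bind AU-rich sequence in 3′ UTRs, so the 3′ UTRs of the members were searched for ATATA on the sense strand, overlapping matches counted, taking the longest annotated 3′ UTR of each gene. It was present in 31 of 49 member genes (63.3%), against 58.8% of 11184 genes. The longest 3′ UTR had a median of 1501 bases in members and 1135 bases over all genes, so the shares do not come from windows of equal length. The median log2 fold change was 0.08 in the 31 member genes with a match and 0.00 in the 18 without. Over all genes it was 0.02 with a match and −0.00498 without. In the 4 lowest member genes other than PTBP2 that hold it, the first match reads as follows, ATATA in capitals with 10 bases on each side, at chr10:68342283-68342307 (plus), chr11:62714277-62714301 (minus), chr22:30332172-30332196 (minus) and chr4:82353328-82353352 (minus).
HNRNPH3: gatactttttATATActagttactc
HNRNPUL2: cgggatatgtATATAggtgaatcct
SF3A1: gtattagagaATATAttaaatggtt
HNRNPD: gattaaagaaATATAtaccgtgttt
HNRNPH3 holds 2 matches in 1133 bases, HNRNPUL2 1 in 2669, SF3A1 4 in 2606 and HNRNPD 2 in 1687. PTBP2, the lowest gene, holds 33 in 10333 bases. Among the highest member genes, the 3′ UTR of HNRNPA1 holds 6 matches in 2543 bases and that of SRSF8 6 in 3149. That of SRSF10 holds 9 in 2859 and that of HNRNPC 0 in 673. The SRSF8 value joins a non-coding transcript at 1.07 and a coding one at 0.12. The letters thus occur at both ends of the members' range, in 3′ UTRs of unequal length.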

How the data were processed

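Total RNA (rRNA removed) from 1 shRBMS1 and 2 shControl libraries of SW480 cells was sequenced. Per the submitters' processing notes, STAR 2.5, Cufflinks, Cuffdiff and hg38 were used; their roles, settings and filters are not stated there. The authors deposited 1 table of log2 fold changes for 20104 RefSeq transcripts. Its header names neither base nor direction. Base 2 was taken from repeated values: 20 transcripts lay 1 away, within 1.5e-05, from a value found at least 3 times, and 4 and 5 lay ln 2 and log10 of 2 away. If the direction were opposite, every sign would turn.

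Symbols from RefSeq (GRCh38.p14) matched 19818 transcripts (98.6%). Medians, differences and counts were computed with Python 3.11.15, numpy 2.4.6 and pandas 2.3.3, and no test was run. The script was tested on simulated data. Exon structure and sequence came from GENCODE 29 through RefSeq links used by 1 transcript alone; the 3′ UTR search took any link. CUGBP1, on a list of other splicing genes, is an older symbol of the member CELF1 and was left out. Members and lists were chosen with earlier results of these data known. Named genes are those with both NR and coding transcripts, those with a transcript at or beyond 1, and the ends of each family or list; others were named after their values were seen. Some items under this rule are not reported here. Alternatives were other thresholds, centring, coding transcripts or protein-coding genes alone, means, the transcript nearest 0, leaving out values beyond 5, and genes with 1 transcript of each kind.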

Additional observations from a re-analysis of the deposited data

How the results depend on the processing

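No paired analysis was possible because the table holds 1 fold change per transcript and the groups share 1 replicate number; leaving out a library was not possible for the same reason. With a threshold of 0.58 the members held 11 higher and 13 lower transcripts, and with 2 there were 3 higher and 5 lower. Other splicing genes held 6 higher and 12 lower at 0.58, and 0 higher and 0 lower at 2. Counts at 1 stayed within 1.5 times under centring and with coding transcripts or protein-coding genes alone, where these were tried. The median of member transcripts was 0.0217 centred on all transcripts and 0.0571 without values beyond 5, and the mean had the other sign, −0.15. The median of member genes was 0.0294 centred, 0.0325 with coding transcripts alone, −0.00572 with the transcript nearest 0 and −0.17 as a mean. Both means include PTBP2, at −7.58 as a gene. The NR minus coding median was 0.31 with means and 0.20 with the transcript nearest 0. It was −0.0651 without values beyond 5, which drops PTBP2 and 1 SRSF10 transcript, and −0.0491 over the 4 genes with 1 transcript of each kind. Without PTBP2 alone, an alternative chosen after seeing the data, it was 0.125. The cause of the other differences was not tested. Depth and levels, which limit the precision of every value, are unknown here.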
